A study of Rattus norvegicus with 19 samples.

Results

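Small RNA libraries from tail-vein plasma of 5 sham-operated controls were compared with those of 4 naïve rats, 9 of the 19 libraries of the study. The libraries were chosen by their labels, with 1 library per rat, and all were taken 2 days after surgery or anesthesia. All rats were adult male Sprague-Dawley rats. Sham-operated controls had isoflurane anesthesia, a scalp incision, a craniectomy over the left hemisphere and a cemented Luer cap, with lidocaine, buprenorphine and saline, but no fluid-percussion impact. Naïve rats had a short isoflurane anesthesia and no surgery, so surgery, the longer anesthesia and the drugs cannot be told apart in this comparison. The other 10 libraries, 5 from rats with mild traumatic brain injury (mTBI) and 5 from rats with severe injury (sTBI), had the same surgery followed by an impact. The comparison addresses how plasma after the whole sham procedure differs from that of naïve rats.

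MicroRNAs (miRNAs) are short RNAs that pair with messenger RNAs through their seed, bases 2 to 8, and lower their translation or stability. Cells release them, and in plasma they are found with proteins, lipoproteins and vesicles. The miR-1, miR-133 and miR-206 families are abundant in striated muscle. A large imprinted cluster between the genes Dlk1 and Dio3, expressed from the maternal chromosome, codes for many miRNAs that are abundant in brain and also present in muscle and endocrine tissue. Plasma mixes RNA from all tissues, so more RNA released per cell and more cells releasing it cannot be told apart.

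The following mature sequences, from RefSeq on the GRCr8 build, are shown because the results turn on them, with the seed in capitals. Of the 17 miRNAs that passed the test, 15 matched an entry.
rno-miR-434-3p: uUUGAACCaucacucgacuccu
rno-miR-3543: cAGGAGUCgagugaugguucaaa
rno-miR-134-5p: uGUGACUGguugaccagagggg
rno-miR-323-3p: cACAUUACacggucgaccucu
rno-miR-136-3p: cAUCAUCGucucaaaugagucu
rno-miR-382-5p: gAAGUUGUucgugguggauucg
rno-miR-379-3p: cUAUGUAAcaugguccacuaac
rno-miR-133b-3p: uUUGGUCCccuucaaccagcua
rno-miR-206-3p: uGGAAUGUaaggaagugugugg
rno-miR-1b: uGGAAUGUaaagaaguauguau
rno-miR-488-3p: uUGAAAGGcuguuucuugguc

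miR-1-3p, miR-1b and miR-206-3p have 1 seed in common, GGAAUGU, and miR-133a-3p and miR-133b-3p another, UUGGUCC. The first 7 sequences lie on chromosome 6, each within 1 Mb of the next, in the Dlk1-Dio3 cluster. miR-206-3p and miR-133b-3p are neighbours on chromosome 9 within the same distance. miR-133a-3p, miR-133c, miR-1-3p and miR-3571 are neighbours on chromosome 18. miR-488-3p on chromosome 13, miR-1b on chromosome 3 and miR-3593-3p, elsewhere on chromosome 6, each lie apart from the others that passed. miR-23a-5p and miR-3568 matched no entry and were not placed.

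Total reads in the 9 libraries ranged from 16241433 to 19456365 and miRNA counts from 2409545 to 5041094 unique molecular indices (UMIs), tags that let PCR copies of 1 molecule be counted once. Naïve libraries 1 and 3 stood apart, with 12.7 and 15.0 miRNA UMIs per UMI of the synthetic spike-ins, against 6.64 and 7.24 in naïve libraries 2 and 4 and 5.53 to 9.37 in sham-operated controls. In the injured groups mTBI libraries 2 and 5 also stood apart. In 3 of the 9 libraries the lowest miRNA count above 0 was 10, so that very low counts are not comparable between libraries. Spearman's rho of miRNA counts was 0.957 to 0.973 between sham libraries, 0.950 to 0.968 between naïve libraries and 0.929 to 0.972 across the groups, and no libraries held identical values. As a sign of red cell lysis, miR-451-5p was set against miR-23a-3p, and their log2 ratio was -3.01 ± 0.54 (SD, n = 4) in naïve rats and -2.66 ± 0.97 (SD, n = 5) after sham surgery (two-sided exact permutation test, p = 0.540, adjusted p = 0.694 over 18 measures). The log2 fold change of miR-451-5p itself was 0.05, and that of miR-23a-3p, given below, was negative, so the ratio also moved with its denominator. By absorbance the paper found some pooled plasma samples hemolyzed, but none by its PCR measure of these miRNAs.

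After sham surgery 15 of the 713 miRNAs tested rose above their naïve level (2.1%) and 2 fell below it (0.281%) at an adjusted p under 0.05 in edgeR's quasi-likelihood test. The 15 were 1.70 to 6.62-fold higher. They comprised 5 members of the muscle list, 6 of the Dlk1-Dio3 list, and miR-3571, miR-3593-3p, miR-23a-5p and miR-3568. The 2 lower ones were miR-488-3p and miR-379-3p. In 16 of the 17 the libraries of the groups did not overlap. Over all miRNAs tested, the groups did not overlap for 35 higher (4.91%) and 10 lower (1.4%). DESeq2 on the same UMI counts called 24 higher and 22 lower, a more even split. Without naïve libraries 1 and 3 and mTBI libraries 2 and 5, edgeR called 0, with 47 miRNAs at an unadjusted p under 0.05 against 140 with all libraries. With 2 naïve libraries left in that fit, all 17 kept their direction, which for the 16 without overlap was nearly fixed in advance. Of the 17, log2 fold changes were then 2.16 for miR-133a-3p/133b-3p (2.47 with all libraries), 2.28 for miR-206-3p (2.73) and 1.79 for miR-1b (1.74). They were 1.07 for miR-434-3p (1.27) and 1.30 for miR-323-3p (1.18), while miR-382-5p was at 0.48 (0.77) and miR-379-3p at -0.54 (-1.08). Without naïve library 1 alone, 9 were higher and 2 lower, and without naïve library 3 alone, 9 were higher and 1 lower. Without naïve library 2 there were 16 higher and 19 lower, and without naïve library 4 there were 22 higher and 19 lower.

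**Figure D1:**
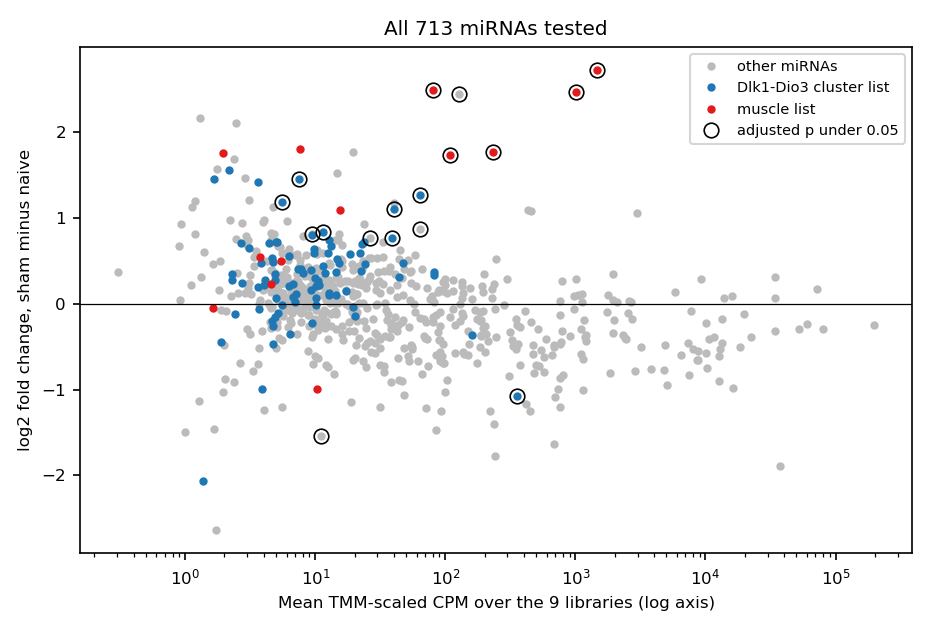
The log2 fold change between sham-operated controls and naïve rats is plotted against the mean level over the 9 libraries (TMM-scaled CPM, log axis), 1 point per miRNA for all 713 tested. Circled points passed an adjusted p under 0.05, 15 above 0 and 2 below, with miR-206-3p highest at 2.73.

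Levels are given as TMM-scaled CPM, UMI counts scaled to the same total of miRNA UMIs in each library and then by edgeR's library factors (TMM). On this scale the difference between the groups also varied with level. The median log2 fold change of the 260 miRNAs under 10 CPM was 0.18, with 183 above 0. It was -0.34 for the 71 miRNAs at or above 1000 CPM, of which 20 were above 0. Without the 4 libraries named above the same medians were 0.00 and -0.04. With total counts in place of TMM factors they were 0.42 and -0.01, and the median of all miRNAs moved from 0.04 to 0.29, so the direction of an abundant miRNA close to the median depends on the scaling.

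Of 13 miRNAs on the striated muscle list, 5 rose and 8 did not pass, and miR-206-3p had the highest log2 fold change of the miRNAs that passed. This miRNA, which is expressed in skeletal muscle, was at 180.0, 584, 298 and 356 CPM in naïve libraries 1 to 4 and at 1219.9, 1193, 2813, 981 and 5523 CPM in sham libraries 1 to 5. Every sham library was above every naïve library, and sham library 5 was the highest. The means were 355 ± 169.9 (SD, n = 4) and 2346 ± 1922 (SD, n = 5), a log2 fold change of 2.73 (SE 0.48, edgeR adjusted p = 0.00165). Reads of miR-133a-3p and its near copy miR-133b-3p, which act in muscle growth and differentiation, are counted as 1 feature. It was at 191, 499.8, 271 and 194 CPM in naïve rats and at 1024, 823, 2348, 1427 and 2374 CPM in sham-operated controls. The groups did not overlap, and the highest naïve library, number 2, was again the one nearest to the sham range. Its log2 fold change was 2.47 (SE 0.40, edgeR adjusted p = 0.0011).

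miR-1-3p, the most studied miRNA of heart and skeletal muscle, was at 68.3, 133, 134 and 64.7 CPM in naïve rats and at 198, 162, 435, 208 and 699 CPM in sham-operated controls. All sham libraries were above the naïve range, and sham libraries 3 and 5 were well above the other three. The log2 fold change was 1.77 (SE 0.40, edgeR adjusted p = 0.0159). The call was lost without naïve library 1, with replicate number added to the fit, and in a fit of sham and naïve libraries only. miR-1b differs from miR-1-3p at 1 base, written A17G with positions counted from the 5′ end of miR-1b. It was at 39.4, 53.4, 60.1 and 34.1 CPM in naïve rats and at 86.4, 89.0, 186, 131 and 288 CPM in sham-operated controls, again without overlap. Its log2 fold change was 1.74 (SE 0.33, edgeR adjusted p = 0.00231). Since the quantification allowed mismatches in its last alignment step, miR-1-3p and miR-1b may share reads, which was not tested. miR-206-3p differs from miR-1-3p at 3 bases, written G11A, G21A and G22U from the 5′ end of miR-206-3p, and from miR-1b at 4. Over the full length this is more than the mismatches that this step tolerated. G21A and G22U are at the 3′ end, so reads lacking those bases would differ less. Whether miR-206-3p shares reads with the other miRNAs was not tested.

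The muscle list had 13 miRNAs tested, with a median log2 fold change of 1.74 beside 0.04 over all 713. Of these, 5 rose (miR-206-3p, miR-133a-3p/133b-3p, miR-133c, miR-1-3p and miR-1b), or 38.5% beside 2.1% of all miRNAs tested, and 0 fell. The 5 may not be separate, since miR-1b and miR-1-3p may share reads and miR-133c is annotated opposite to miR-133a-3p. The list was also chosen with earlier results of these data known. Of the miRNAs that rose, 3 passenger arms were tested and did not pass. miR-133a-5p was at 3.17 ± 1.95 CPM (SD, n = 4) in naïve rats and 11.2 ± 4.55 CPM (SD, n = 5) after sham surgery, with a log2 fold change of 1.80 (SE 0.53, edgeR adjusted p = 0.0743). The log2 fold change was 0.54 for miR-133b-5p and 0.23 for miR-1-5p. miR-206-5p had 0 UMIs in 8 of the 9 libraries and 10 in sham library 3, and was not tested. The miRNAs that lie within the heart myosin genes did not pass either. miR-208b-3p, miR-208a-3p and miR-499-5p were chosen after their values were seen. miR-208b-3p had a log2 fold change of 1.09 (edgeR adjusted p = 0.0743), and miR-208a-3p of 0.50 (edgeR adjusted p = 0.379). miR-499-5p had one of -0.99 (edgeR adjusted p = 0.238). Its other arm, miR-499-3p, went the other way at 1.76 (SE 1.17, edgeR adjusted p = 0.428). miR-208b-5p had a value of -0.05 (SE 1.44, edgeR adjusted p = 0.986).

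**Figure D2:**
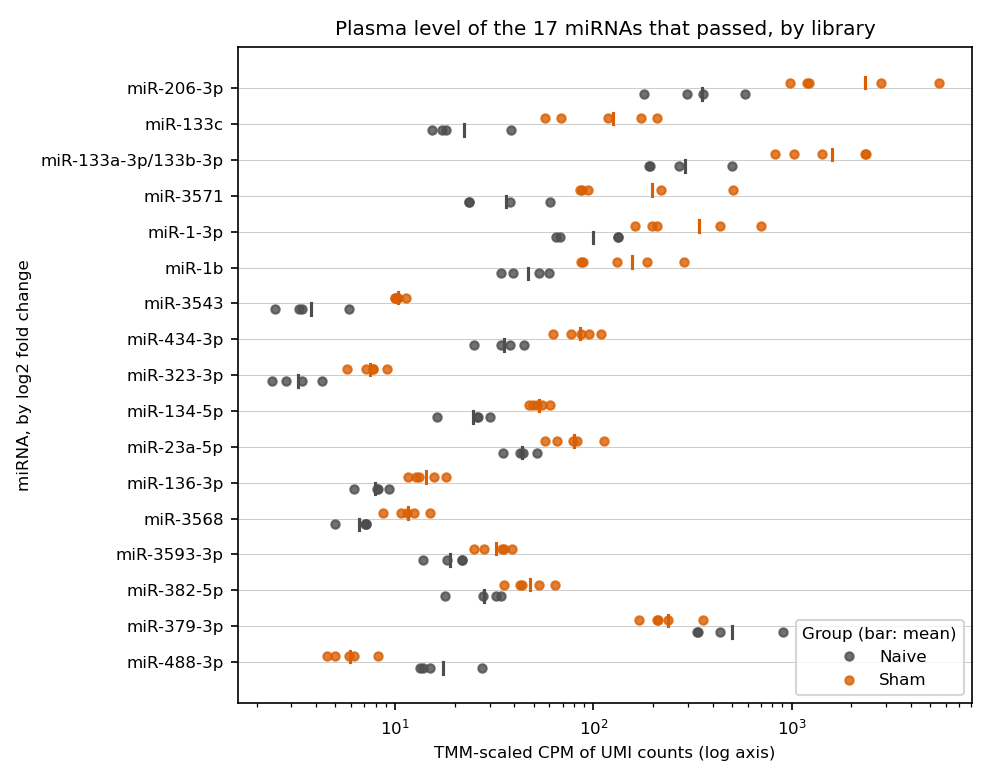
Each point is 1 library's level (TMM-scaled CPM, log axis) of a miRNA that passed, in 4 naïve and 5 sham libraries, with the group mean as a bar. The groups do not overlap in 16 of the 17 miRNAs, and miR-379-3p is the exception.

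Among the miRNAs that passed, 3 are annotated on the opposite strand of another that passed. miR-133c shares 21 bases with the reverse complement of miR-133a-3p, miR-3571 shares 21 with that of miR-1-3p, and miR-3543 shares 22 with that of miR-434-3p. Over all 748 miRNAs, 43 such pairs of at least 18 shared bases were found among the 675 with a RefSeq sequence, and in 3 of the 40 pairs with both members tested both passed. Whether strand was used in counting is not given in the sources used here, so the members of such a pair may share reads, which was not tested.

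For each 100 UMIs of miR-133a-3p/133b-3p, the naïve libraries held 8.02, 7.66, 6.39 and 9.31 UMIs of miR-133c and the sham libraries 6.73, 6.92, 7.42, 8.30 and 8.79. This ratio stayed in a narrow range while the levels of both rose several-fold. For each 100 UMIs of miR-434-3p there were 13.0, 13.1, 6.48 and 9.90 of miR-3543 in naïve rats and 9.44, 15.9, 12.0, 13.0 and 11.9 in sham-operated controls. For each 100 UMIs of miR-1-3p there were 34.6, 45.1, 17.7 and 58.9 of miR-3571 in naïve rats and 43.1, 54.0, 50.7, 45.1 and 72.4 in sham-operated controls. The ranges of the 2 groups overlapped for all 3 pairs. In log2 fold change, miR-133c rose by 2.49 (SE 0.44, edgeR adjusted p = 0.00165) and miR-3571 by 2.45 (SE 0.52, edgeR adjusted p = 0.0117). The call of miR-3571 was lost without naïve library 1 or naïve library 3, and in a fit of sham and naïve libraries only.

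**Figure D3:**
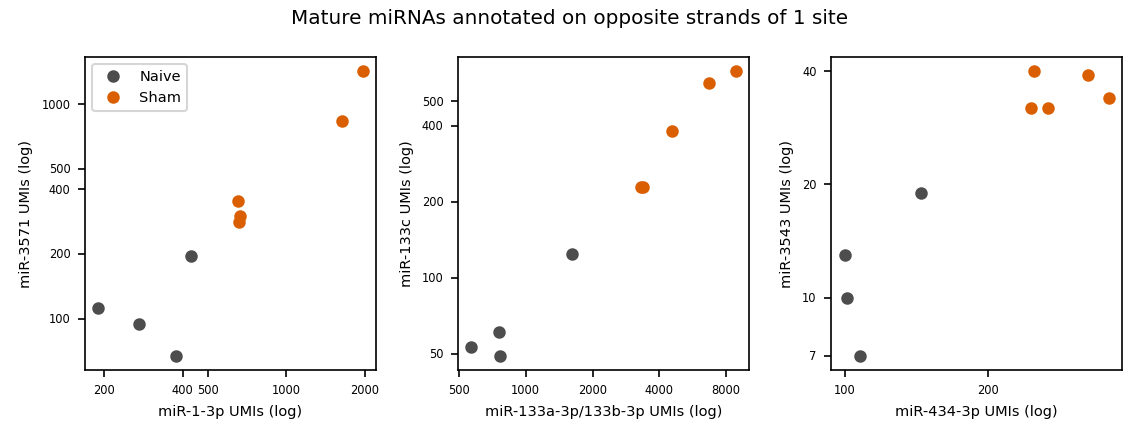
UMI counts of 2 miRNAs annotated on opposite strands of 1 site are plotted against each other on log axes for the 4 naïve and 5 sham libraries, 1 point per library and 1 panel per pair. In each panel the sham libraries lie above the naïve libraries on both axes.

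In the Dlk1-Dio3 cluster, 6 of 85 miRNAs tested rose (7.06%, beside 2.1% of all miRNAs tested) and 1 fell (1.18%, beside 0.281%), with a median log2 fold change of 0.34. Of the 85, 67 had a log2 fold change above 0, against 383 of 713 overall. Signs also varied with level, since among the 260 miRNAs under 10 CPM 183 were above 0, with a median of 0.18. The list was not compared with miRNAs of like level. In 14 of the 85 every sham library was above every naïve library (16.5%, beside 4.91% of all miRNAs), and in 0 every sham library was below. The list includes miRNAs that the study itself picked out in these libraries, so its counts are not independent evidence of a direction. At an unadjusted p under 0.05, 22 were higher and 1 was lower, beside 66 higher and 74 lower over all miRNAs. The summed level of the list overlapped between the groups, from 1396 to 1922 CPM in naïve rats and from 1462 to 1764 CPM in sham-operated controls. This sum is weighted by level, and miR-379-3p, which fell, was in every library above each of the 6 that rose.

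miR-434-3p, coded in mouse antisense to the retrotransposon-derived gene Rtl1, was at 25.1, 44.8, 38.2 and 34.4 CPM in naïve rats and at 109, 62.4, 86.3, 77.2 and 95.3 CPM in sham-operated controls. The lowest sham library was above the highest naïve library, and the log2 fold change was 1.27 (SE 0.20, edgeR adjusted p = 0.0011). Its opposite-strand neighbour miR-3543 rose by 1.45 (SE 0.26, edgeR adjusted p = 0.00165) in log2 fold change, from 7 to 19 UMIs per naïve library and 32 to 40 per sham library. miR-134-5p, which acts on dendritic spines in hippocampal neurons of rats, was at 16.3, 30.3, 25.8 and 26.2 CPM in naïve rats and at 60.7, 49.7, 52.0, 47.2 and 55.1 CPM in sham-operated controls. The sham libraries lay close together, well above the naïve range. The log2 fold change was 1.10 (SE 0.19, edgeR adjusted p = 0.00156).

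miR-323-3p was counted at 17, 11, 8 and 7 UMIs in naïve rats and at 19, 31, 29, 29 and 20 UMIs in sham-operated controls, so its difference rests on few molecules. As TMM-scaled CPM the groups did not overlap, with 3.22 ± 0.812 (SD, n = 4) and 7.46 ± 1.20 (SD, n = 5). The log2 fold change was 1.18 (SE 0.22, edgeR adjusted p = 0.00231), and the call was lost in a fit of sham and naïve libraries only (1.15, edgeR adjusted p = 0.0592). miR-136-3p, also antisense to Rtl1 in mouse, was at 9.29, 6.18, 8.13 and 8.18 CPM in naïve rats and at 12.7, 13.2, 15.7, 11.6 and 18.1 CPM in sham-operated controls. No sham library fell within the naïve range, and the log2 fold change was 0.83 (SE 0.20, edgeR adjusted p = 0.0242). miR-382-5p was at 17.8, 32.4, 27.9 and 34.1 CPM in naïve rats and at 64.0, 43.5, 42.8, 35.6 and 53.0 CPM in sham-operated controls. Its sham library 4 was just above naïve library 4, and the log2 fold change was 0.77 (SE 0.20, edgeR adjusted p = 0.0466). The call of miR-136-3p was lost when any of 4 libraries (naïve 2 or 3, sham 3 or 5) was left out, and that of miR-382-5p was lost in 6 of 9 such fits. Both calls were also lost in the fit of sham and naïve libraries only.

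The arms of single hairpins of the cluster differed in value. miR-379-3p was at 436, 334, 905 and 337 CPM in naïve rats and at 359, 238, 213, 170.2 and 209 CPM in sham-operated controls. Naïve library 3 was far above the rest, and sham library 1 lay within the naïve range. Its log2 fold change was -1.08 (SE 0.27, edgeR adjusted p = 0.0351), and the call was lost without naïve library 3, without any of sham libraries 2 to 5, and with total counts or spike-in totals as the scale. A fit of sham and naïve libraries only lost it too. miR-379-5p, in contrast, was at 16.1, 16.4, 17.7 and 17.7 CPM in naïve rats and at 41.4, 23.4, 26.8, 24.1 and 22.0 CPM in sham-operated controls. All its sham libraries were above the naïve ones, with a log2 fold change of 0.70 (SE 0.19, edgeR adjusted p = 0.0536) that did not pass. The other arms of the cluster miRNAs that rose did not pass. Their log2 fold changes were 0.41 for miR-434-5p, 0.15 for miR-134-3p, 0.33 for miR-323-5p, -0.26 for miR-136-5p and 0.71 for miR-382-3p, with 0 UMIs in 1 naïve library for miR-136-5p and in 1 sham library for miR-382-3p. The difference between arms was not tested.

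miR-488-3p, from an intron of the astrotactin gene Astn1 that neurons express, was at 13.8, 13.3, 27.6 and 15.0 CPM in naïve rats and at 4.53, 6.22, 5.84, 5.00 and 8.17 CPM in sham-operated controls. The sham libraries were all below the naïve range, and the counts were 15 to 25 UMIs per sham library. Its log2 fold change was -1.54 (SE 0.28, edgeR adjusted p = 0.00165), while miR-488-5p had one of 0.16 (SE 0.23, edgeR adjusted p = 0.742). miR-23a-5p was at 35.1, 51.9, 42.8 and 44.0 CPM in naïve rats and at 65.9, 78.8, 82.8, 57.2 and 114 CPM in sham-operated controls. It rose by 0.87 in log2 fold change (SE 0.23, edgeR adjusted p = 0.0436), while its partner arm miR-23a-3p had a value of -0.53 (SE 0.25, edgeR adjusted p = 0.251). miR-3593-3p was at 21.8, 18.2, 13.8 and 21.8 CPM in naïve rats and at 34.7, 24.9, 28.1, 39.0 and 35.5 CPM in sham-operated controls. Its log2 fold change was 0.77 (SE 0.20, edgeR adjusted p = 0.0351), and that of miR-3593-5p was 0.50 (SE 0.18, edgeR adjusted p = 0.142). miR-3568 had 14 to 28 UMIs per naïve library and 30 to 48 per sham library, with a log2 fold change of 0.82 (SE 0.22, edgeR adjusted p = 0.0452). The calls of miR-3593-3p and miR-23a-5p were lost in 6 of 9 fits that left out 1 library, and that of miR-3568 in 7 of 9. All of these calls were also lost in the fit of sham and naïve libraries only.

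The brain-enriched list had 56 miRNAs tested, of which 0 rose, 1 fell (miR-488-3p) and 55 did not pass, beside 2.1% higher and 0.281% lower of all miRNAs tested. At an unadjusted p under 0.05 there were 6 of 56, beside 140 of 713 overall. The median log2 fold change of the brain-enriched list was 0.14, and 40 were above 0. The nearest were miR-448-5p at 0.96 (edgeR adjusted p = 0.0882), miR-330-5p at -0.48 (edgeR adjusted p = 0.211) and miR-338-5p at 0.46 (edgeR adjusted p = 0.223). miR-9a-3p, an arm of a neural miRNA, was at 8.28, 7.41, 6.01 and 7.84 CPM in naïve rats and at 5.44, 8.46, 11.2, 14.1 and 11.0 CPM in sham-operated controls. The groups overlapped, with a log2 fold change of 0.43 (SE 0.30, edgeR adjusted p = 0.450). The neuronal miR-153-3p had a log2 fold change of 0.14 (SE 0.35, edgeR adjusted p = 0.855) on 9 or more UMIs per library.

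No miRNA passed in the lists of liver, erythrocytes, leukocytes, platelets, endothelium and smooth muscle, epithelium and skin, fibroblasts, bone and cartilage, or endocrine tissue. At an unadjusted p under 0.05 these lists held 3 of 10, 0 of 23, 1 of 13, 1 of 18, 1 of 8, 2 of 14, 4 of 18 and 3 of 12 miRNAs, in that order, beside 140 of all 713. Their median log2 fold changes, in the same order, were -0.39, 0.02, 0.05, 0.03, -0.74, -0.19, -0.34 and 0.23. In the liver list 1 of 10 was above 0. Over all lists 20 of the 71 miRNAs at or above 1000 CPM were above 0, and the liver list was not compared with miRNAs of like level. miR-148a-3p, of hepatocytes and other cells, was at 6788, 4423, 9073 and 4629 CPM in naïve rats and at 3424, 4086, 3369, 2964 and 4344 CPM in sham-operated controls. Naïve libraries 1 and 3, which stood apart, were the highest, and naïve libraries 2 and 4 were just above the highest sham library. The groups did not overlap, but the log2 fold change of miR-148a-3p, -0.78 (SE 0.23, edgeR adjusted p = 0.0743), did not pass. miR-194-5p had one of -0.87, miR-192-5p of -0.65 and miR-148a-5p of -0.50.

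Among leukocyte miRNAs, miR-142-5p, of blood cell lineages, was at 735, 559, 768 and 445 CPM in naïve rats and at 328, 356, 287, 406 and 411 CPM in sham-operated controls. It did not overlap between the groups and was just outside the threshold, with a log2 fold change of -0.81 (SE 0.22, edgeR adjusted p = 0.0542). miR-142-3p had one of -0.41, miR-146a-3p of -0.88 and the myeloid miR-223-3p of 0.31. Of the red cell list, miR-15a-3p had a log2 fold change of 1.21, miR-96-5p of 1.52, miR-144-3p of -0.40 and miR-15b-3p of -0.37. Platelet list values were -0.99 for miR-26a-5p, 0.57 for miR-24-1-5p, -0.45 for miR-24-3p and -0.32 for miR-191a-3p.

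Large differences that did not pass were found in the vascular list. miR-143-3p, of smooth muscle, was at 8868 CPM in naïve library 2 and 11572 CPM in naïve library 4 but at 127419 and 103386 CPM in naïve libraries 1 and 3. Sham libraries held 28737, 19522, 23464, 4462 and 8366 CPM, so the group difference follows 2 naïve libraries. Its log2 fold change was -1.89 (SE 0.93, edgeR adjusted p = 0.264), and 0.69 without the 4 libraries that stood apart. miR-145-3p turned in the same way, from -1.40 to 0.69, while miR-126a-5p and miR-126a-3p of endothelium had values of -0.52 and -0.51. In the fibroblast, bone and cartilage list, miR-29c-3p (-1.0), miR-29a-3p (-0.61) and miR-21-5p (-0.65) also turned in direction without these libraries, and miR-140-5p of cartilage had a value of -0.46. Epithelial values were -0.39 for miR-200b-5p, -0.56 for miR-141-3p, -0.47 for miR-200a-3p, which turned likewise, and -0.28 for miR-200a-5p. Endocrine values were 0.79 for miR-375-5p, -0.42 for miR-7a-1-3p, 0.52 for miR-216b-5p and 0.38 for miR-7a-2-3p.

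**Figure D4:**
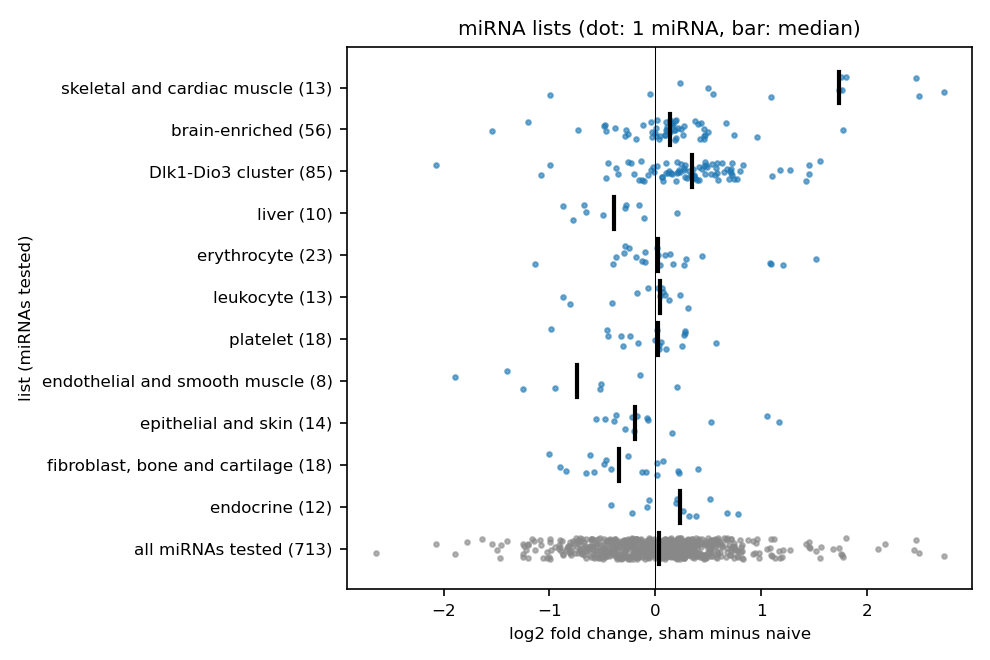
Each point is the log2 fold change of 1 miRNA between sham-operated controls and naïve rats, by list, with the median as a bar and the number tested in parentheses. The median is 1.74 for the muscle list and 0.34 for the Dlk1-Dio3 list, beside 0.04 for all 713 miRNAs.

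The injured rats had the same surgery, and their values stand beside those of sham-operated controls. All these comparisons share naïve or sham libraries and are therefore not independent. edgeR called 17 higher (2.38%) and 0 lower (0%) of 713 in mTBI against naïve rats, 31 higher (4.35%) and 4 lower (0.561%) in sTBI against naïve rats, 1 higher (0.14%) and 0 lower in mTBI against sham-operated controls, and 13 higher (1.82%) and 2 lower (0.281%) in sTBI against sham-operated controls. At an unadjusted p under 0.05, in either direction, mTBI differed from naïve rats in 51 miRNAs and from sham-operated controls in 81. Against naïve rats, the log2 fold change of miR-133a-3p/133b-3p was 2.47 without an impact, 2.83 with mTBI and 1.36 with sTBI. That of miR-206-3p was 2.73, 2.34 and 1.27 in the same order. Tested directly against sham-operated controls, sTBI had a value of -1.11 (SE 0.35, edgeR adjusted p = 0.136) for miR-133a-3p/133b-3p and of -1.46 (SE 0.42, edgeR adjusted p = 0.0909) for miR-206-3p, and neither passed.

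For the 6 cluster miRNAs that rose, the sTBI value was the highest against naïve rats, and the sham and mTBI values had no common order. The log2 fold change of miR-434-3p against naïve rats was 1.27 without an impact, 1.47 with mTBI and 2.94 with sTBI, and that of miR-323-3p was 1.18, 1.64 and 3.48. In the same order it was 1.45, 1.41 and 2.71 for miR-3543, 1.10, 0.90 and 1.59 for miR-134-5p, 0.83, 0.84 and 1.31 for miR-136-3p, and 0.77, 0.39 and 1.52 for miR-382-5p. Tested directly against sham-operated controls, sTBI was higher for miR-434-3p by 1.67 (SE 0.19, edgeR adjusted p = 1.55e-06), for miR-323-3p by 2.30 (SE 0.17, edgeR adjusted p = 2.68e-09), for miR-3543 by 1.26 (SE 0.20, edgeR adjusted p = 0.000308) and for miR-382-5p by 0.75 (SE 0.19, edgeR adjusted p = 0.0352). For miR-134-5p the value was 0.48 (edgeR adjusted p = 0.234) and for miR-136-3p 0.48 (edgeR adjusted p = 0.261). The 1 miRNA that passed between mTBI and sham-operated controls was miR-9a-3p, with a log2 fold change of 1.66 (edgeR adjusted p = 0.00262).

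**Figure D5:**
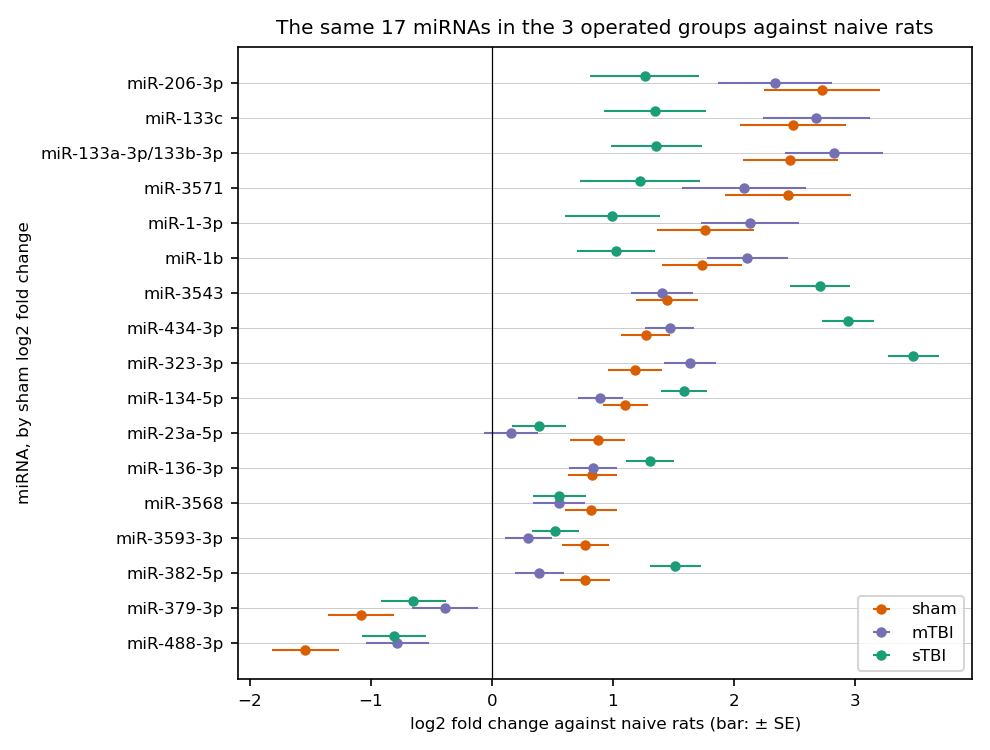
For the 17 miRNAs that passed between sham-operated controls and naïve rats, the log2 fold change against naïve rats is shown for sham-operated controls, mTBI and sTBI, each with its SE as a bar. All 3 share the naïve libraries. sTBI reaches 3.48 for miR-323-3p, where sham-operated controls are at 1.18.

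Transfer RNAs (tRNAs), which carry amino acids to the ribosome, are cut into fragments that also circulate in plasma. Of 332 tRNA features tested, edgeR called 0 higher and 0 lower in sham-operated controls (0% in each direction), with 39 at an unadjusted p under 0.05. The second tool, DESeq2, gave 3 higher and 0 lower. Summed over features with 1 anticodon, 0 of 48 passed in edgeR, with 3 at an unadjusted p under 0.05. Features of 1 anticodon are close in sequence and can share reads. Glycine and glutamate tRNAs made up most tRNA UMIs in both groups. GlyCCC was 43.9 ± 5.69% of them (SD, n = 4) in naïve rats and 45.2 ± 3.47% (SD, n = 5) after sham surgery, GlyGCC 28.3 ± 2.00% and 30.2 ± 3.96%, and GluCTC 20.7 ± 4.28% and 17.3 ± 3.77%.

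Of the 5 tRNA features with the smallest p, 2 were of aspartate. Chr12.trna2134-AspGTC was at 134, 214, 184 and 148 CPM of tRNA UMIs in naïve rats and at 339, 370.4, 278, 262 and 330.2 CPM in sham-operated controls. Its groups did not overlap, but the log2 fold change of 0.90 (SE 0.23, edgeR adjusted p = 0.215) did not pass. Chr13.trna3816-AspGTC had a log2 fold change of 0.91, Chr3.trna1329-AlaCGC of -1.24 (SE 0.35) and Chr2.trna2689-LysCTT of -0.79. Chr13.trna2591-LysCTT had 0 UMIs in all 4 naïve libraries and 0, 16, 14, 10 and 17 UMIs in sham-operated controls, near the lowest count that some libraries hold. Over all features of AspGTC the share was 0.68, 0.76, 0.68 and 0.79% of tRNA UMIs in naïve rats and 0.75, 1.00, 0.99, 0.98 and 1.83% in sham-operated controls, and the groups overlapped. These shares are not scaled by library factors. With that scaling the AspGTC sum had a log2 fold change of 0.17 (SE 0.36, edgeR adjusted p = 0.888).

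Piwi-interacting RNAs (piRNAs) silence transposons in the germ line, and reads in plasma annotated as piRNAs can come from fragments of other RNAs. Of 77 piRNA features tested, edgeR called 0 in either direction (0%), with 8 at an unadjusted p under 0.05, and DESeq2 called 0. rno_piR_001199 alone made up 73.3 ± 4.80% (SD, n = 4) of piRNA UMIs in naïve rats and 66.7 ± 5.67% (SD, n = 5) after sham surgery. The smallest p values were those of rno_piR_005359, with a log2 fold change of 0.61 (SE 0.20, edgeR adjusted p = 0.335), and of rno_piR_005787 (0.52), rno_piR_010158 (1.67), rno_piR_012452 (-0.59) and rno_piR_012738, which had 13 and 12 UMIs in naïve libraries 1 and 3 and 0 in the other 7.

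None of 18 measures of reads and UMIs passed a two-sided exact permutation test over 126 divisions of the libraries (smallest adjusted p = 0.286). The smallest p that this design allows is 0.00794, so that 1 measure on its own could not reach an adjusted p below 0.143, and these tests do not show that the groups were alike. tRNA reads were 23.9, 34.9, 43.0 and 31.4% of all reads in naïve rats and 34.4, 24.9, 22.7, 21.8 and 23.3% in sham-operated controls (exact permutation p = 0.111). Sham library 1 was apart from the other 4 sham libraries. Reads too short to use were 16.9, 14.8, 9.48 and 14.5% in naïve rats and 14.2, 19.2, 19.2, 20.8 and 20.1% in sham-operated controls (exact permutation p = 0.0556). miRNA reads were 32.2 ± 5.51% (SD, n = 4) and 33.2 ± 2.71% (SD, n = 5), and tRNA UMIs per spike-in UMI 13.5 ± 6.36 (SD, n = 4) and 8.38 ± 2.59 (SD, n = 5).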

How the data were processed

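The deposited tables hold raw read counts and UMI counts per feature, which the authors made with the GeneGlobe portal (cutadapt trimming, removal of short inserts and UMIs, sequential Bowtie alignment to miRBase and other RNA classes, genome build Rnor_6.0, with mismatches allowed in a last pass to mature miRNAs). UMI counts of 748 miRNAs, 386 tRNA and 104 piRNA features were analysed here. edgeR 4.0.16 (R 4.3.3) was run with TMM factors, filterByExpr by group (minimum count 10) and a robust quasi-likelihood fit of all 19 libraries in 4 groups (15 residual degrees of freedom), with Benjamini-Hochberg adjustment within each table at 0.05. DESeq2 1.42.0 was the second tool. Single measures were compared with exact permutation tests. Seeds and opposite-strand pairs came from RefSeq sequences (GRCr8). Named miRNAs are those that passed, their other arms, up to 4 per list by p, and 5 taken to validation by the study; of tRNA and piRNA features, the 5 with the smallest p. Groups came from the labels. Members and lists were chosen with earlier results of these data known. The alternatives were other counts, filters, scalings, covariates, tools and left-out libraries. The code was tested on simulated data. Other RNA features were not used.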

Additional observations from a re-analysis of the deposited data

Results flagged for a closer look

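Among 70 sets of sham or naïve values checked for a library far from the others of its group, 9 flags were raised, and chance alone flags about 1 in 20 sets. In 4 of the miRNAs that passed, 1 library lay apart. miR-3543 was at 11.4 CPM in sham library 5, above the other sham libraries at 9.95 to 10.4 CPM. miR-133c was at 38.3 CPM in naïve library 2, above 15.3 to 18.1 CPM in the other naïve libraries and still below every sham library. miR-488-3p was at 27.6 CPM in naïve library 3, above 13.3 to 15.0 CPM in the others. miR-3568 was at 4.95 CPM in naïve library 3, below 7.03 to 7.16 CPM in the others. Sham library 1 lay apart from the other sham libraries in 3 measures of reads, with 14.2% of reads too short against 19.2 to 20.8%, 34.4% tRNA reads against 21.8 to 24.9%, and 12.9 tRNA UMIs per spike-in UMI against 6.83 to 8.15. Naïve library 1 had 40.5% miRNA reads against 29.1 to 29.8% in the other naïve libraries. Naïve library 3 had 23.0 tRNA UMIs per spike-in UMI against 9.21 to 11.1.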

How the results depend on the processing

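Of the miRNAs that were higher, 15 in the reported fit, the number was 9 with the replicate block, 7 in a fit of sham and naïve libraries only, 24 with DESeq2 and 0 without the 4 libraries that stood apart. Of the lower ones, 2 in the reported fit, the number was 1 with total counts, 1 with spike-in totals, 22 with DESeq2, 10 with DESeq2 on reads of sham and naïve libraries and 0 without the 4 libraries. Leaving out 1 library gave 9 to 22 higher and 1 to 19 lower. For tRNA features higher in sham-operated controls, 0 in the reported fit, 3 passed with total counts and 3 with DESeq2. Shared calls with the reported 17 were 17 of 46 for DESeq2, 10 of 11 with the replicate block, 15 of 20 with total counts and 11 of 11 with spike-in totals. In the fit of sham and naïve libraries only, 8 of 9 were shared. Deviations of same-numbered libraries correlated at -0.06, -0.18, 0.22 and 0.11, within the range of differently numbered ones, -0.30 to 0.30. So few same-numbered values cannot settle whether the replicate numbers pair the groups. None of the 17 changed direction in the 22 alternatives. They were picked on these same libraries, and the groups did not overlap in 16 of them. Where libraries were left out, their direction was therefore nearly fixed in advance. Values that did not pass turned in direction as follows. Without the 4 libraries, the log2 fold changes were -0.18 for miR-134-3p, -0.23 for miR-488-5p, 0.16 for miR-26a-5p, 0.69 for miR-143-3p, 0.69 for miR-145-3p, 0.17 for miR-200a-3p, 0.35 for miR-29c-3p, 0.13 for miR-29a-3p, 0.12 for miR-21-5p and -0.10 for miR-153-3p. With total counts they were 0.063 for miR-136-5p and 0.017 for miR-200a-5p. For miR-153-3p they were -0.016 with the replicate block, -0.049 with DESeq2 on reads and -0.029 with counts under 10 set to 0. Leaving out 1 library gave -0.060 to 0.30 for miR-134-3p, -0.087 to 0.34 for miR-488-5p, -0.71 to 0.18 for miR-136-5p and -0.22 to 0.29 for miR-153-3p. The cause of these changes was not tested. Fits without libraries hold fewer samples, while those with total counts, the replicate block or counts under 10 set to 0 hold all libraries. Counts of UMIs limit the precision of miRNAs near 10 UMIs, such as miR-323-3p.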
